A study of Drosophila melanogaster with 4 samples.

Results

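The regions described here are the Myc peaks on 3L, the left arm of the third chromosome of Drosophila melanogaster. They were chosen by sequence name alone, as every peak listed on 3L and not on the separate heterochromatin scaffold 3LHet. This gave 1556 of the 8614 peaks in the list, or 18.1%. As background, 2L held 1460 peaks, 3R held 1815 and X held 1460. Only these arms were compared with 3L, and the arm 2R was not.

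The experiment was chromatin immunoprecipitation with sequencing (ChIP-seq) on wandering larvae of the third instar. It had 2 libraries precipitated with a rabbit polyclonal antibody named MycN, raised against residues 46 to 507 of Drosophila Myc, and 2 libraries of input DNA from the same kind of larvae. All 4 libraries came from the strain labelled Y cn bw sp, whose sex was not recorded. Its listed alleles are y[1], cn[1], bw[1] and sp[1], the body and eye colour markers of the strain name, along with Rh6[1], GstD5[1], MstProx[1], LysC[1], Gr22d[1] and Gr22b[1], and with lab[R4.2], CG33964[R4.2] and oc[R3.2]. Whole larvae were fixed, so each library mixes the chromatin of all larval tissues. The labels do not say how many larvae were pooled or whether the libraries of each kind are separate collections.

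Myc, encoded by the gene dm in flies, is a transcription factor of the basic helix-loop-helix family. With its partner Max it binds DNA at E-box motifs, and it is best known for driving cell growth through genes of ribosome production and protein synthesis. The left arm of the third chromosome runs from a telomere at its tip, where numbering starts, to gene-poor, repeat-rich heterochromatin next to the centromere at its base.

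The list gives 1 start, 1 end and 1 score for each peak and nothing for a single library. The depth of sequencing is therefore unknown and no spread between replicates can be given. The values below describe this 1 list, and no difference between arms was tested. The score is the authors' peak caller's own value, and its scale is not named, so it served to rank peaks and to set limits within this list. Positions are those of FlyBase Release 5, counted from 1. Gene annotation of that release was not used here, so peaks are named by position and not by gene.

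Along 3L, Myc peaks were spread over almost the whole arm and then thinned sharply at the base. The first peak lay from 21795 to 22575, with a score of 58.65, and the last lay from 24529068 to 24530888, with a score of 94.74. Over the span of 24.5 Mb, from base 1 to the end of the last peak, the density was 63.4 peaks per Mb, against 63.6 for 2L, 65.1 for 3R and 65.1 for X. The variance of the number of peaks in bins of 100 kb, divided by its mean, was 2.66 for 3L, against 3.15 for 2L, 2.58 for 3R and 2.96 for X. Peaks covered 5.80% of 3L, against 6.41% of 2L, 6.20% of 3R and 6.57% of X, so 3L had the lowest share covered among these arms. The median score was 59.53 on 3L, against 60.46 on 2L, 66.09 on 3R and 65.12 on X. Its median width was 732.5 bp, against 732 bp on 2L, 759 bp on 3R and 775 bp on X. The middle range of scores, from the lower to the upper quartile, ran from 21.8 to 158 on 3L, and the middle range of widths ran from 438 to 1168 bp.

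Cut into segments of 1 Mb from the tip, 3L had 24 full segments with 13 to 89 peaks and a median of 65.5. Of these, 19 segments held 50 peaks or more. The fullest were the segments from 8 to 9 Mb and from 19 to 20 Mb, with 89 peaks each, followed by those from 3 to 4 Mb and from 16 to 17 Mb with 87 each. The segment from 10 to 11 Mb held 41 peaks, that from 13 to 14 Mb held 45, and that from 2 to 3 Mb held 48.

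**Figure D1:**
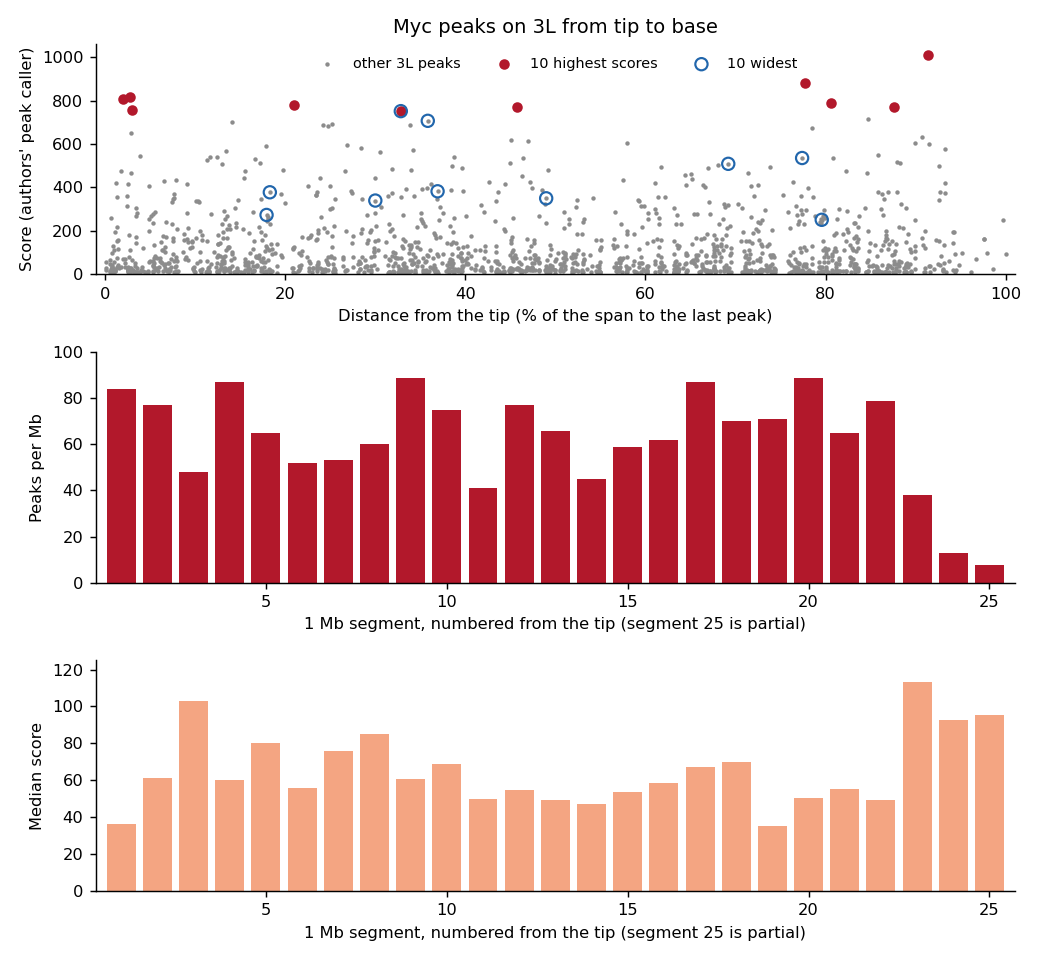
Myc peaks on 3L from tip to base. The upper panel plots the authors' score of each of the 1556 peaks against distance from the tip in percent of the span, with the 10 highest scores filled in red and the 10 widest peaks ringed in blue; the middle and lower panels give peaks per Mb and the median score in each 1 Mb segment. Segments 24 and 25 fall to 13 and 7.53 peaks per Mb, while the median score reaches 113.2 in segment 23.

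At the base, peaks became few while those listed kept ordinary or high scores. The segment from 22 to 23 Mb held 38 peaks, the one from 23 to 24 Mb held 13, and the remaining partial segment held 4. In the last 1 Mb of the span there were 8 peaks, and the density there, over that of all else on the arm, was 0.12. The same ratio was 0.32 on 2L and 0.30 on X, and 0.94 on 3R, which is numbered from its centromeric end. In the last 2 Mb, 3L had 36 peaks and a ratio of 0.27, against 0.74 on 2L, 1.07 on 3R and 0.39 on X. The base of 3L was thus the thinnest of the 4 at both window sizes. How far the sequence of each arm reaches into heterochromatin was not compared, so the windows may not be alike. Peaks covered 0.624% of the last 1 Mb of 3L, against 5.80% of the whole arm.

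Scores did not fall with the number of peaks there. The median score was 113.2 in the segment from 22 to 23 Mb, the highest of the 24 full segments, and 92.5 in the next one. Of the 36 peaks in the last 2 Mb, 21 scored at or above 61.16, the median of the whole list, and the median of the 36 was 93.6. Of all 3L peaks, 49.1% scored at or above 61.16. Higher scores where peaks are few were not particular to the base. Over the whole arm, the median score was 76.2 in 100 kb bins of 1 to 3 peaks and 47.9 in bins of 13 to 20. The 8 peaks of the last 1 Mb scored between 10.62 and 252.09. A pair of them, from 23935657 to 23936038 and from 23940483 to 23940958, had the same score of 163.66 and lay 4.44 kb apart. They were 382 bp and 476 bp wide, narrow beside the median of 1018 bp for 3L peaks that score from 91.3 to 197. Their shared score is not particular to them, since the peak from 2228567 to 2229217 scored 163.66 as well.

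The tip carried more peaks than average, and many of these were weak. The first 1 Mb held 84 peaks. Its density over that of all else was 1.34 for 3L, against 1.46 for 2L, 0.89 for 3R and 1.01 for X. Its median score of 36.4 was the second lowest of the full segments, after 35.3 from 18 to 19 Mb. Yet the same 1 Mb, with 84 of the arm's 1556 peaks, held 5 of its 50 peaks that score above 500. Among them were 3 of the 10 strongest, and these counts are small.

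Of the 10 strongest peaks on 3L, 3 lay in the first 1 Mb, 4 beyond 19 Mb and the others between 5 and 12 Mb. Of all 1556 peaks, 84 lay in the first 1 Mb and 288 beyond 19 Mb. With 10 peaks these counts are too small to read a placement from. The strongest lay from 22400522 to 22401739, was 1218 bp wide, scored 1011.32 and stood apart, with 46.6 kb to its nearest neighbour. That neighbour, from 22448382 to 22450272, was itself strong, with a score of 597.94. The second, from 19055210 to 19056848, scored 881.81. Near the tip, the peak from 673055 to 674348 scored 816.43, that from 504911 to 506795 scored 808.10, and that from 748227 to 749714 scored 755.86. A further peak, from 698562 to 700218, scored 649.36.

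Of the other strongest peaks, the one from 19783326 to 19785204 scored 790.05 and had a weak neighbour of score 11.47 at 0.678 kb. The peak from 5144586 to 5146363 scored 777.28. At 21476710 to 21477782 lay the narrowest of the 10, 1073 bp wide with a score of 769.53. A peak from 11207527 to 11209467 scored 768.37, and one from 8055604 to 8059891 scored 751.07. This last was the only one of the 10 to be among the 10 widest as well, with 4288 bp. In 5 of the 10 cases the nearest neighbour scored below the median of the list. Of all 3L peaks, 49.1% scored at or above that median, so this count does not set the 10 apart.

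In all, 50 peaks on 3L, or 3.21% (95% exact binomial interval 2.39% to 4.21%), scored above 500, against 3.29% of the whole list. The share was 4.59% on 2L (3.57% to 5.79%), 3.75% on 3R (2.92% to 4.73%) and 3.70% on X (2.79% to 4.80%). All of these intervals overlap that of 3L. The binomial intervals given here count peaks as if independent and cover counting error only. Median width among the strong peaks was 1503 bp on 3L, against 1662 bp on 2L, 1674.5 bp on 3R and 1946.5 bp on X. Of the 50, 7 had a neighbour within 1 kb, or 14%, against 24.8% of all 3L peaks.

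Strong peaks were unevenly placed along the arm, with few in a long middle stretch. Between 11517378 and 18981486, a stretch of 7.46 Mb, only 3 of 488 peaks scored above 500, or 0.615%, against 47 of 1068 over the rest of the arm, or 4.40%. The 3 lay from 14205048 to 14206371, with a score of 605.94, from 16703720 to 16706032, with a score of 505.56, and from 16971355 to 16977919, with a score of 508.81. The stretch was noticed while the strong peaks were read through, and strong peaks set its borders, so a low count inside is partly built in. In number of peaks it was not thin, with 65.4 per Mb against 62.6 per Mb in the rest of the arm.

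Moderately high scores were present there. Peaks scoring above 200 and up to 500 made up 17.0% of the stretch and 16.0% of the rest, and the median score was 55.3 in the stretch and 62.3 in the rest. To set this beside the other arms, a window of the same length was moved along each in steps of 10 kb. Its length and the limit of 500 were taken from the stretch on 3L, so the low 3L values restate that choice and the arms are not compared on equal terms. The fewest peaks above 500 in such a window were 3 on 3L, against 17 on 2L, 12 on 3R and 15 on X. With a limit of 600 the fewest were 1 on 3L, against 6 on 2L, 6 on 3R and 8 on X. With a limit of 400 they were 20 on 3L, against 24 on 2L, 24 on 3R and 23 on X, and with a limit of 300 they were 44 on 3L, against 42 on 2L, 43 on 3R and 46 on X. At 300, 3L was not the lowest of the 4 arms.

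The longest distance between neighbouring strong peaks on 3L was 2.69 Mb, from 11517378 to 14205047, and 156 weaker peaks lay in it. A further 2.50 Mb, from 14206372 to 16703719, held 167 peaks with scores up to 492.17. On the other arms the longest such distance was 1.90 Mb on 2L, 2.25 Mb on 3R and 1.72 Mb on X. The median distance between neighbouring strong peaks was instead shortest on 3L. It was 191 kb, against 203 kb on 2L, 272 kb on 3R and 360 kb on X. The longest distance on 3L lies inside the middle stretch that was noticed after values were seen.

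**Figure D2:**
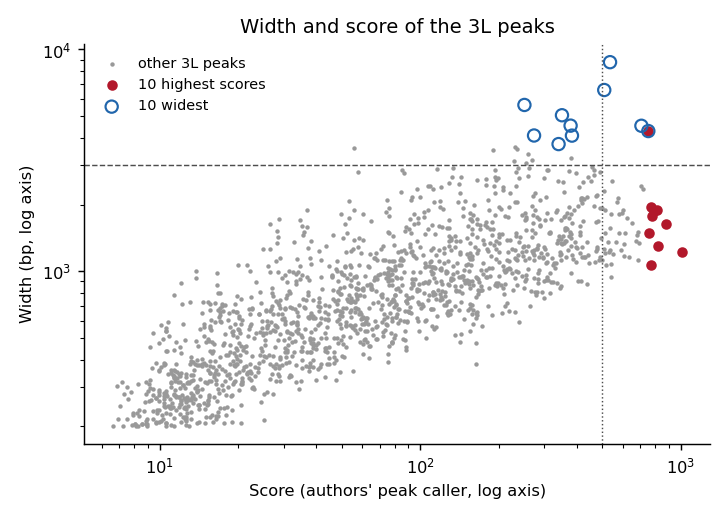
Width against score for the 1556 Myc peaks on 3L, both on log axes. The 10 strongest peaks are red and the 10 widest ringed in blue, with 1 peak in both sets; the dashed line marks 3000 bp and the dotted line a score of 500, and 4 peaks lie beyond both.

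Wide peaks were few on 3L. Here 19 peaks were wider than 3000 bp, or 1.22% (95% exact binomial interval 0.737% to 1.90%), against 2.64% of the whole list. The share was 4.18% on 2L (3.21% to 5.33%), 2.64% on 3R (1.96% to 3.49%) and 3.63% on X (2.73% to 4.72%). On 2L, 23 of the 61 wide peaks stand in 1 row near the base of that arm. Without them 38 were left, or 2.64%. The low share was noticed while many measures of the 4 arms were set side by side, and density, median score and median width were close between arms, so it is a description picked from many. Across limits of 2000, 2500, 3000 and 4000 bp, 3L had the lowest share of the 4 arms each time, 6.36%, 3.34%, 1.22% and 0.578%. At 2000 bp the share was 6.36% on 3L, against 10.0% on 2L, 7.77% on 3R and 10.5% on X. It was lowest as well in the 3 other peak sets tried.

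To compare peaks of like score, the peaks of the 4 arms were put into 5 classes with equal numbers over the arms together. In the highest class, with scores from 197 up, 17 of 308 peaks on 3L were wider than 3000 bp, or 5.52%, against 10.3% on 2L, 10.1% on 3R and 11.6% on X. In that class the median width was 1363.5 bp on 3L, against 1472 bp on 2L, 1391.5 bp on 3R and 1459.5 bp on X. In the class below it, 1 of 291 peaks on 3L was wide, or 0.344%, against 9.48% on 2L, its basal row included, 2.43% on 3R and 4.15% on X. Width rose with score on every arm, with a Spearman's rho of 0.82 across the peaks of 3L, 0.83 on 2L, 0.81 on 3R and 0.80 on X. These peaks share their libraries and caller, and both values are drawn from the same signal.

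**Figure D3:**
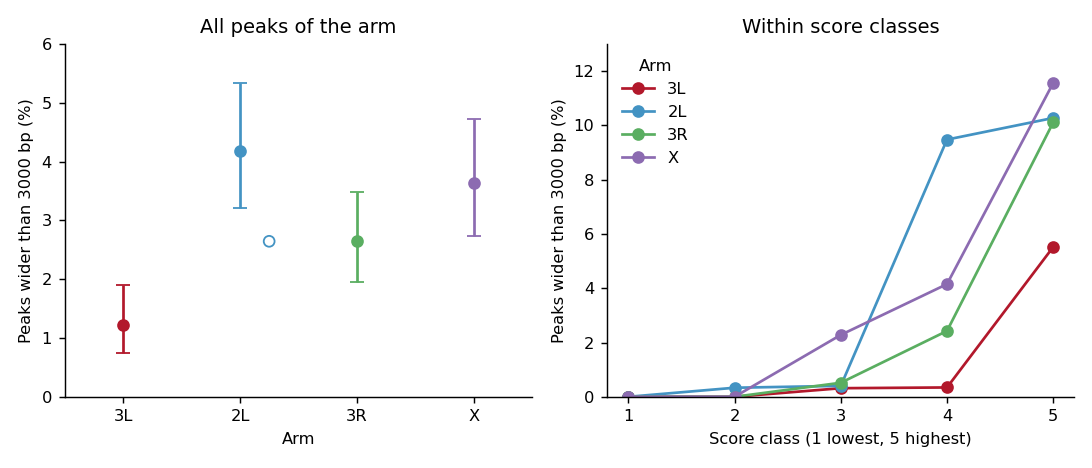
Share of Myc peaks wider than 3000 bp, by arm. On the left, points give all peaks of 3L, 2L, 3R and X with 95% exact binomial intervals, and the open circle gives 2L without the 23 wide peaks of its basal row; on the right, lines give the share within 5 score classes. On the left, 3L is lowest, at 1.22%, and in the highest score class it stands at 5.52% against 10.1% to 11.6% on the other arms.

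The widest peak of 3L lay from 18981487 to 18990251. It was 8765 bp wide with a score of 535.53, and weak peaks scoring 20.07 and 10.60 stood on either side. Next came a peak of 6565 bp from 16971355 to 16977919, which scored 508.81 and was followed 59 bp later by a peak scoring 319.20. A peak of 5622 bp from 19517385 to 19523006 scored 251.31, and one of 5053 bp from 12013678 to 12018730 scored 350.24. The wide peaks at 4488672 to 4493207 and 8789781 to 8794310 were of nearly equal width, 4536 and 4530 bp, with scores of 377.94 and 706.61.

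The remaining members of the 10 widest, besides the strong peak at 8055604, began at 4399679, 9056746 and 7361340. They were 4095, 4090 and 3746 bp wide and scored 273.64, 382.50 and 339.87. The scores of the 10 ran from 251.31 to 751.07, all above the upper quartile of the arm, and 4 of them were above 500. Of all 19 wide peaks, 18 scored above the median of the list, against 49.1% of all 3L peaks at or above it. The exception, from 11287684 to 11291283, was 3600 bp wide and scored 55.92. Width rose with score on this arm, so a high count among wide peaks is partly built in. Of the 19, 12 had a neighbour within 1 kb, or 63.2%, against 386 of all 1556 peaks on 3L, or 24.8%, and the neighbours of the 12 had a median score of 11.65. In the first 1 Mb lay 0 of the 19 and 84 of all 1556 peaks, and beyond 19 Mb lay 2 of the 19 and 288 of all, so these counts are too small to read a placement from.

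The median interval between neighbouring peaks of 3L was 6391 bp, against 6094 bp on 2L, 6300 bp on 3R and 5371 bp on X. Intervals under 1 kb made up 225 of 1555 on 3L, or 14.5% (95% exact binomial interval 12.8% to 16.3%), against 15.6% on 2L, 13.5% on 3R and 18.2% on X. In these close pairs on 3L the median score was 14.7 for the weaker peak and 88.7 for the stronger, while in the other 1330 pairs the medians were 30.2 and 142.5. Both members scored at or above the median of the list in 20 close pairs, or 8.89%, and in 26.8% of the others. The close pair with the highest weaker score lay from 7804273 to 7805776 and from 7806057 to 7807186, with scores of 376.16 and 486.60 at a distance of 0.280 kb.

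**Figure D4:**
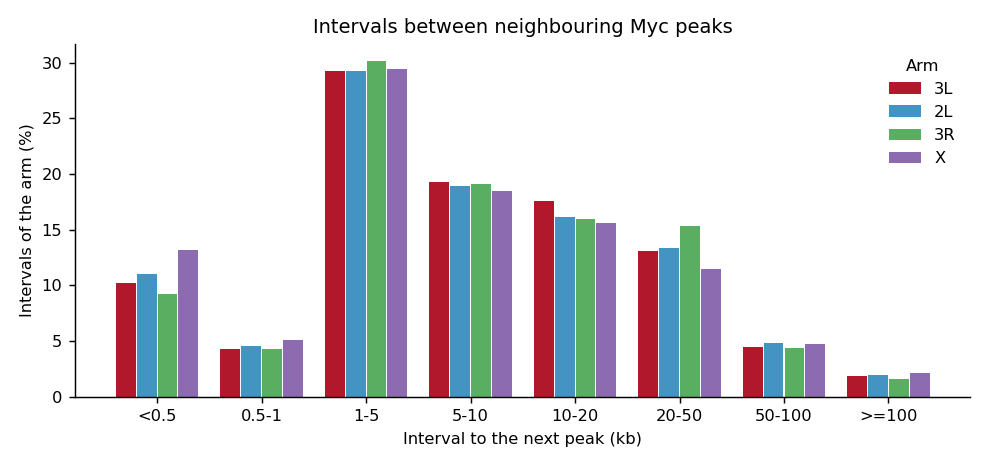
Intervals between neighbouring Myc peaks by length, as a percentage of all intervals of the arm, for 3L, 2L, 3R and X. On 3L, 10.2% of intervals were under 0.5 kb and 1.86% were 100 kb or longer, against 9.21% to 13.2% and 1.60% to 2.12% on the other arms.

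Chains of peaks with less than 1 kb between neighbours held 386 peaks of 3L, or 24.8%, against 26.1% on 2L, 24.0% on 3R and 30.4% on X. Most chains on 3L were pairs, 118 of them, with 29 chains of 3 peaks and 14 of 4 or more. The longest ran for 11.1 kb from 19512897 to 19523975 and held 7 peaks. It held the 5622 bp peak with a score of 251.31, and the 6 small peaks around it scored 7.90 to 35.21. On 2L and X the longest chains had 11 peaks, and on 3R they had 7.

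The densest stretches held many weak peaks. Among 245 full bins of 100 kb, the median held 6 peaks, and 12 bins held 14 or more. The largest count was 20, against 17 with bins shifted by 50 kb and 14 with peaks less than 1 kb apart joined. The densest bin, from 600001 to 700000, held 20 peaks with a median score of 28.9. Of these, 8 scored at or above the median of the list and 2 above 500, including the peak of score 816.43. Between 626198 and 629936 in this bin, 5 peaks scoring 10.37 to 28.87 followed each other within 3.74 kb. The next densest bin, from 18800001 to 18900000, held 19 peaks with a median of 26.9, and 4 of these scored above the median of the list, up to 314.20.

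Of the bins with 16 peaks, the one from 9400001 to 9500000 had the highest median score, 70.3, with 2 peaks above 500 that scored 500.79 and 538.41. Those from 19500001 to 19600000 and from 19900001 to 20000000 had medians of 46.2 and 41.9 and no peak above 500. Together the 5 densest bins held 87 peaks with a median score of 44.9, against 60.4 for all other peaks of the arm. The same order held over all bins. Where a bin held 1 to 3 peaks their median score was 76.2, with 4 to 6 it was 67.4, with 7 to 9 it was 62.0, with 10 to 12 it was 56.6, and with 13 to 20 it was 47.9. Bins of 7 to 9 peaks held 23 of the 50 peaks above 500, but also 506 of all 1556 peaks. The share above 500 was 4.55% there, against 3.21% of all 3L peaks. From the emptiest to the fullest of the other groups it was 3.41%, 2.70%, 2.17% and 2.78%, with no steady order.

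**Figure D5:**
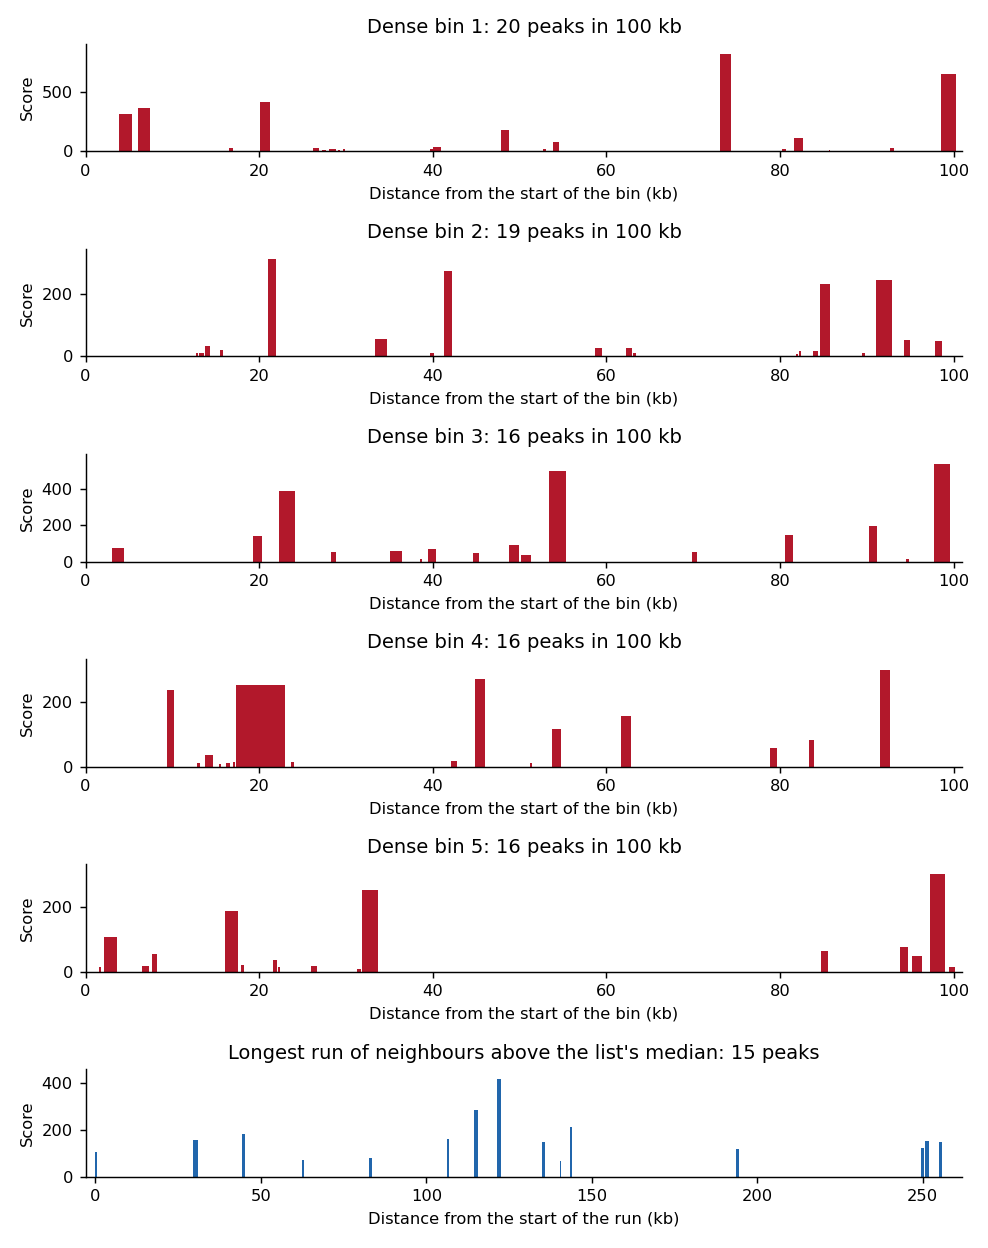
The 5 densest 100 kb bins of 3L and, at the bottom in blue, its longest run of neighbouring peaks above the median of the list. Each bar is a peak, drawn to width at its distance in kb from the start of the bin or run, with its height the authors' score on a linear axis that differs between panels. The bins combine a few high bars with many low ones. All 15 bars of the run lie between 67.45 and 417.73, and none is below the list's median by the rule that chose the run.

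The longest of 387 runs on 3L of neighbouring peaks at or above the median of the list lay near the tip. Its lack of weak peaks follows from that rule, so it is no contrast to the dense bins. From 2122256 to 2378134, over 255.9 kb, 15 neighbouring peaks all scored above the median of the list, with no weaker peak among them. Their scores ran from 67.45 to 417.73 with a median of 151.07, and their widths from 502 to 1690 bp. None was above 500. A stretch of 124.2 kb without a peak separated the run from a weak peak of score 16.50 on its tip side, and a peak of score 30.30 stood on its basal side. The next longest such runs on 3L had 9 and 8 peaks, from 6087521 to 6187019 and from 7327872 to 7375564. On 2L the longest had 12 peaks, on 3R it had 9 and on X 10. With peaks less than 1 kb apart joined, the longest run had 14 peaks for 3L, against 15 for 2L, 13 for 3R and 11 for X, so the lead of 3L depends on counting close peaks apart. The longest run below the median on 3L had 10 peaks, from 11217815 to 11342669.

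Long stretches without a peak took up 18.9% of 3L. There were 29 of them over 100 kb, together 4.63 Mb, against 17.6% of the span on 2L, 15.1% on 3R and 20.4% on X. Besides the longest, 331.6 kb from 13506738 to 13838369, whose bordering peaks scored 125.44 and 135.91, 6 were over 200 kb. Of these, 3 lay at the base: 262.6 kb from 24194589 to 24457197, 241.2 kb from 23332554 to 23573724 and 227.0 kb from 23708621 to 23935656. Within the last 2 Mb, 6 stretches over 100 kb made up 57.4% of the length.

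Elsewhere on the arm, 222.0 kb were empty from 15269612 to 15491610, 219.5 kb from 6258673 to 6478138 and 201.7 kb from 18251121 to 18452856. This last was parted from another empty stretch of 156.4 kb by 1 peak alone, from 18452857 to 18454679, with a score of 365.75. Shorter ones of 186.0 kb, 183.4 kb and 182.0 kb began at 17048865, 22072260 and 4901353. The 54 peaks that border the 29 stretches scored from 10.38 to 632.85 with a median of 82.25. Of the 54, 31 scored at or above the median of the list, against 49.1% of all 3L peaks. Only 1 of the 54 was above 500, at 22255633 to 22256792, with a score of 632.85.

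Peaks standing alone, with more than 50 kb to the next on both sides, numbered 20 on 3L, against 15 on 2L, 9 on 3R and 11 on X. Of the 20, 9 lay in the last 2 Mb, against 36 of all 1556 peaks on 3L. Stretches over 100 kb without a peak made up 57.4% of those 2 Mb, so the count partly restates the rule. Scores of the 20 ran from 9.27 to 386.72 with a median of 97.31. Of the 20, 12 scored at or above the median of the list, against 49.1% of all 3L peaks. The highest was the peak from 11911167 to 11912306. Among peaks at or above the median of the list alone, the number was 28 on 3L, against 32 on 2L, 35 on 3R and 22 on X, so the order of the arms turned. Empty bins of 100 kb numbered 20 of 245 on 3L, against 13 of 229 on 2L, 13 of 278 on 3R and 14 of 224 on X.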

How the data were processed

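The deposited file is 1 peak list for the series, with MACS as its source and FlyBase Release 5 as its build, per the file headers and source column. The submitters' processing notes name MACS2, BWA, the build BDGP5 and CASAVA (1.7.0.2, 1.7.0.3) without roles. How peaks were thresholded, filtered or pooled was not given in the sources used here. Each score is the authors' deposited value for a peak. Per the labels, flies grew at 25 C and larvae were fixed in 1.8% formaldehyde for 15 min.

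Width is end minus start plus 1, an interval is the bases between neighbours, and spans run from base 1 to the end of the last peak. A peak belongs to the bin of its midpoint. No tests were made, since no column holds a single library and repeat libraries cannot be compared. Binomial intervals are exact (Clopper-Pearson). Peaks named by position are the 10 strongest, 10 widest and 10 longest empty stretches, the 5 densest bins, the end peaks and the longest run above the median; others, the middle stretch, the share of wide peaks and the peaks standing alone were chosen after values were seen, with 4 score limits, 4 width limits and 3 other peak sets tried. Members, rules and lists were chosen with earlier results of these data known. The measures were tested on simulated data with planted peaks. Python 3.11.15, numpy 2.4.6, pandas 2.3.3 and scipy 1.17.1 were used.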

Additional observations from a re-analysis of the deposited data

How the results depend on the processing

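With only the peaks at or above the median of the list, 3L had 764 peaks at 31.1 per Mb covering 4.07% of the span, with a median score of 159.0, a median width of 1127.5 bp and a median interval of 14932 bp. In that set 2.88% of intervals were under 1 kb, 48 were over 100 kb, the densest bin held 9 peaks and the variance over the mean in 100 kb bins was 1.57, against 2.66 for all peaks. With peaks less than 100 bp apart joined, 5.82% was covered, 12.04% of intervals were under 1 kb and the variance over the mean was 2.51. With a joining distance of 1 kb, 6.14% was covered, the median score was 76.0, the median width 861 bp and the median interval 8317 bp, 0% of intervals were under 1 kb by construction, and the variance over the mean was 2.01. Bins of 200 kb and 50 kb gave 3.22 and 2.07. The density of the last 2 Mb was 0.27 times that of the rest, against 0.12 for the last 1 Mb; the cause was not tested.

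Of 61 alternatives, 30 were classed as leaving the 3L value the same and 31 as moving it. The limits for these classes differed between measures, so the counts do not show how far values changed. With 100 bp joins, the covered share counted as moved at 5.82% against 5.80%. With 1 kb joins, the densest bin counted as the same at 14 peaks against 20. Some moves follow from the setting itself. Among peaks at or above the median of the list, the median score was 159.0, against 59.53 for all peaks. The order of the arms changed for peaks standing alone, among peaks at or above the median of the list, and for the longest run, with 1 kb joins. It changed for density as well. With 100 bp joins density was 61.68 peaks per Mb on 3L and 61.61 on 2L. With 1 kb joins it was 54.3 on 3L, against 53.6 on 2L, 56.3 on 3R and 53.3 on X. The share of wide peaks on 3L, an alternative chosen after seeing the data, was 2.36% among the stronger peaks and 4.28% with 1 kb joins, still the lowest of the 4 arms, which held 5.09% to 8.15% and 5.47% to 8.29%. In the middle stretch, score limits of 400 and 600 left 20 peaks and 1 peak. No paired analysis was possible because the deposited peaks carry no replicate numbers, and for the same reason no library was left out. The unknown depth limits what weaker regions the list can hold.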

Other observations

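The heterochromatin scaffold 3LHet, listed apart from the arm, was thinly filled. It held 18 peaks over 2.41 Mb, or 7.47 per Mb, against 8 peaks in the last 1 Mb of 3L. Their median score was 81.7 and their median width 886.5 bp, and 11 scored above the median of the list. The highest, from 1285020 to 1286053 on that scaffold, scored 298.35. None was above 500 or wider than 3000 bp. The longest empty stretch ran for 589.8 kb from 1397196 to 1987017 of the scaffold, longer than any on 3L.

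Beyond the last peak of 3L that scores above 500, from 22886959 to 22888769, the arm ran for 1.64 Mb with 19 peaks, the highest of which scored 252.09. The segment from 22 to 23 Mb had 5 peaks above 500 among 38, or 13.2%, against 3.21% of all 3L peaks and 3.29% of the list. It was picked from 24 full segments after their values were seen.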
